A study of Mus musculus with 4 samples.

Results

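The ubiquitin-specific proteases (USPs) are the largest family of deubiquitinases, the enzymes that take ubiquitin off proteins. Their genes were chosen by symbol, as every row named Usp and a number with at most a short suffix. This rule found 56 of the 24411 genes listed for each library, and all 56 were found by symbol in the GENCODE annotation of GRCm38, the assembly that UCSC names mm10. *Usp6nl* carries the symbol but encodes a GTPase-activating protein of Rab GTPases and not a protease. It is counted among the members because the rule is by symbol.

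Ubiquitin is joined to lysines of target proteins by ligases, and it marks them for the proteasome, for sorting between membranes or for a change of partner. A USP cuts the bond with a cysteine protease domain, so that a target is spared, recycled or switched off. In the testis these enzymes act on histones during meiosis and spermiogenesis, on DNA repair proteins, on the spindle checkpoint and on the vesicles that build the acrosome.

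GFP-positive cells were sorted from the testes of mice at postnatal day 18 on a mixed C57BL/6 and CBA background, and RNA was measured in 2 control libraries of genotype Zfp541+/- and in 2 libraries labelled Zfp541 KO (KO below). All 4 mice carried the *Rec8-3FH-GFP* knock-in allele, which makes GFP together with the meiotic cohesin REC8 and so marks cells in meiotic prophase of any stage. One control testis was heterozygous and the other homozygous for the knock-in, and both KO testes were homozygous; the labels do not tell which control is which. The KO allele removes exons from the first to number 13 of *Zfp541*, a zinc-finger gene of the meiotic ZFP541-KCTD19-HDAC complex, and control cells keep an intact copy. The values are TPM, shares of all transcripts that are corrected for gene length and keep no sequencing depth, so no counting error can be given. Paired values below are those of controls 1 and 2 and, after "against", those of libraries 1 and 2 labelled KO.

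*Zfp541* itself was at 112 and 72.2 TPM against 136 and 151 TPM. The label is thus not seen in the level of the targeted transcript, and every direction given here rests on the labels. *Rec8* was at 7.05 and 27.9 TPM against 27.7 and 19.4 TPM. The controls also differed in markers of cells outside the germline, whose part in the results was not tested. The summed level of 6 macrophage markers was 2532 TPM in control 1 and 28.7 TPM in control 2, against 1574 to 2150 TPM in the libraries labelled KO. The summed level of 6 Leydig cell markers was 2910 and 18.0 TPM against 331 and 504 TPM. Of 14 leptotene and zygotene markers, 10 were higher in both libraries labelled KO than in both controls, with sums of 3507 and 4212 TPM against 6153 and 6429 TPM. Of 15 pachytene markers, 6 were lower and 3 higher in both, with sums of 9673 and 4983 TPM against 4027 and 5350 TPM. Of all genes tested, 38.6% were higher and 12.1% lower in both libraries labelled KO than in both controls. In bulk RNA, fewer cells of a type and less RNA per cell cannot be told apart. The other lists had summed levels of 536 to 1182 TPM (13 spermatogonial markers), 0.92 to 11.9 TPM (8 elongating spermatid markers), 1344 to 1989 TPM (10 Sertoli cell markers), 12.3 to 24.7 TPM (5 peritubular myoid markers) and 20.3 to 280.2 TPM (5 erythroid markers). The 10 round spermatid markers summed to 1035 and 679 TPM against 169 and 218 TPM, with no overlap of the sums. Only 4 of them averaged 1 TPM or more. Of these 4, 2 lay below and 1 above both controls in both libraries labelled KO, beside 12.1% and 38.6% of all genes tested. *Spaca7* among the 10 was at 0 in every library.

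The comparison asked whether USP genes differ between sorted cells of control and *Zfp541* KO testes. On the deposited scale most USP transcripts were present at somewhat higher levels in the libraries labelled KO, as were 69% of all genes tested. A few were lower, with *Usp44* the lowest relative to the controls. After median-ratio scaling, 30 of 46 tested members were higher, beside 49.7% of all genes. After the length correction given below, 26 were higher, beside 51.6%. Of the 56 members, 46 had an average of 1 TPM or more and entered the test on log2(TPM + 1), in which fold changes of low genes are understated. Those left out were *Usp13*, *Usp29*, *Usp43*, *Usp50*, *Usp51* and the 5 genes of the *Usp17l* cluster. The summed level of all members was 2729 and 1860 TPM against 2901 and 2956 TPM. The median TPM of the 46 tested members was 35.6 and 25.7 against 48.1 and 48.0.

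**Figure D1:**
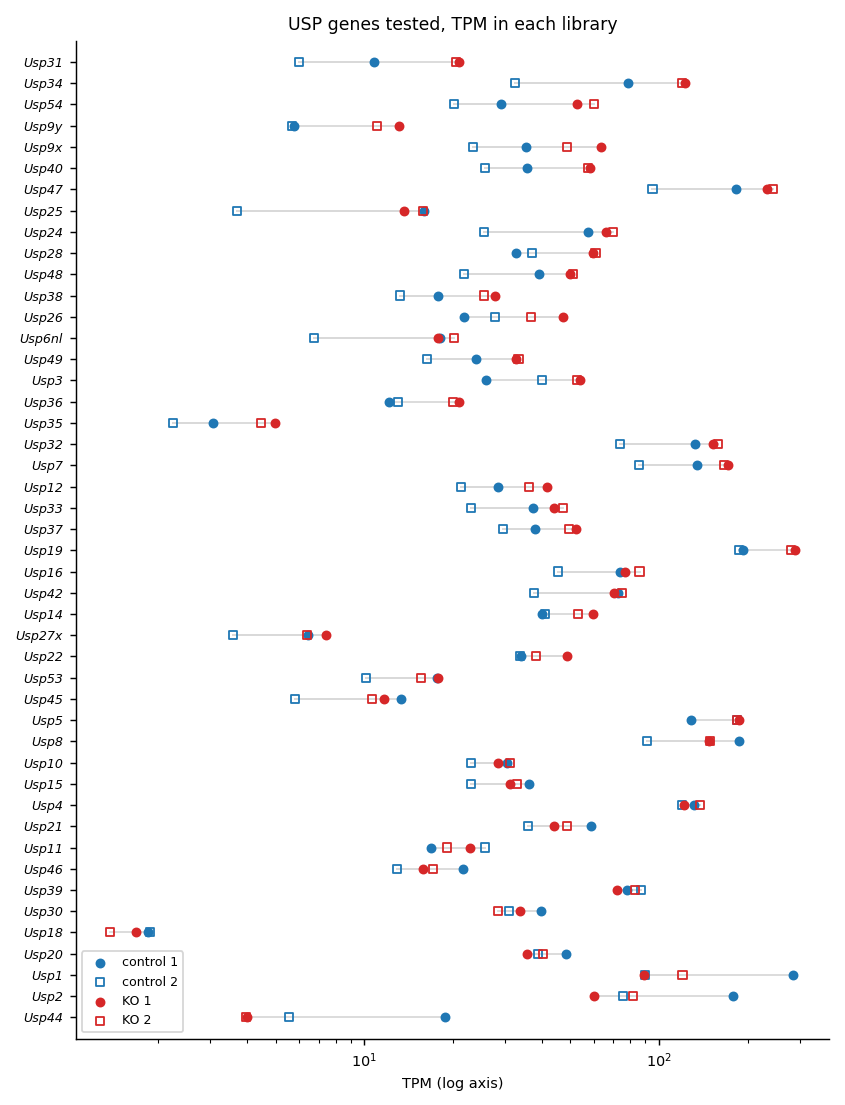
TPM (log axis) of the 46 tested USP genes in each of the 4 libraries, 1 point a library, ordered by log2 fold change. *Usp31* (top) was at 10.8 and 6.02 TPM in controls against 20.9 and 20.5 TPM in libraries labelled KO, while *Usp44* (bottom) was at 18.9 and 5.54 TPM against 3.99 and 3.98 TPM.

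By limma's moderated test with Benjamini-Hochberg adjustment, 0 of the 46 members were higher and 0 were lower at an FDR of 0.05, as for 0% of the 14512 genes tested in either direction. The smallest adjusted p of a member was 0.31 from limma. At an unadjusted p under 0.05 there were 8 members higher and 0 lower, beside 10.7% and 3.73% of all genes tested. These 8 were *Usp54*, *Usp28*, *Usp40*, *Usp19*, *Usp31*, *Usp9x*, *Usp9y* and *Usp26*. In 25 of the 46 members both libraries labelled KO lay above both controls, beside 38.6% of all genes tested, and in 2 (*Usp44* and *Usp18*) both lay below, beside 12.1%. On log2(TPM + 1), 3 members were at least 2-fold higher (*Usp31*, *Usp34* and *Usp54*), beside 8.98% of all genes tested, and *Usp44* was the 1 member at least 2-fold lower, beside 5.22%. With 2 libraries against 2, an exact permutation test cannot give a p under 0.33, so none was used.

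The median log2 fold change of the tested members was 0.59, and that of all genes tested was 0.28. The sign was positive for 38 members and negative for 8, where 69% of all genes tested had a positive sign. The controls lay further apart than the libraries labelled KO in 38 of the 46 members, with a median gap of 0.60 against 0.13 on the log2 scale. Over all genes tested this held for 85.1%, with median gaps of 0.65 and 0.16. Control 2 was the lower control in 37 members, and the fold change was larger than the gap between the controls in 19, beside 66.0% and 38.4% of all genes tested. Against control 1 alone, 29 and 32 of the 46 members were higher in libraries 1 and 2 labelled KO, with medians of 0.29 and 0.27, beside 59.6% and 57.1% of all genes with medians of 0.17 and 0.13. Against control 2 alone, 39 and 40 were higher, with medians of 0.76 and 0.70, beside 71.0% and 69.7% of all genes with medians of 0.45 and 0.43. Of the 38 positive fold changes, 20 were smaller by over 1.5 times or negative without control 2. The share of all genes that did so is not given, so this count has no background. Without control 2 the median of the members was 0.29 and that of all genes 0.15.

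The fold changes moved with transcript length. USP transcripts are long, with a median of 4741.5 nt for the longest annotated transcript of a tested member against 3172.5 nt over all genes tested that had a length. Across the 46 members, which share the same 4 libraries, the log2 fold change and log2 length had a Pearson's r of 0.61 and a Spearman's rho of 0.64, and across all genes these were 0.27 and 0.37. When each library was corrected for length, a step chosen after the data were seen, the median of the members went from 0.59 to 0.049 and that of all genes from 0.28 to 0.022. Under that correction 12 members lay above and 11 below both controls, beside 23.1% and 21.1% of all genes. Under median-ratio scaling, which brought the median of all genes to -0.0044, the median of the members was 0.27, with 20 members above and 11 below, beside 23.1% and 22.3%.

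**Figure D2:**
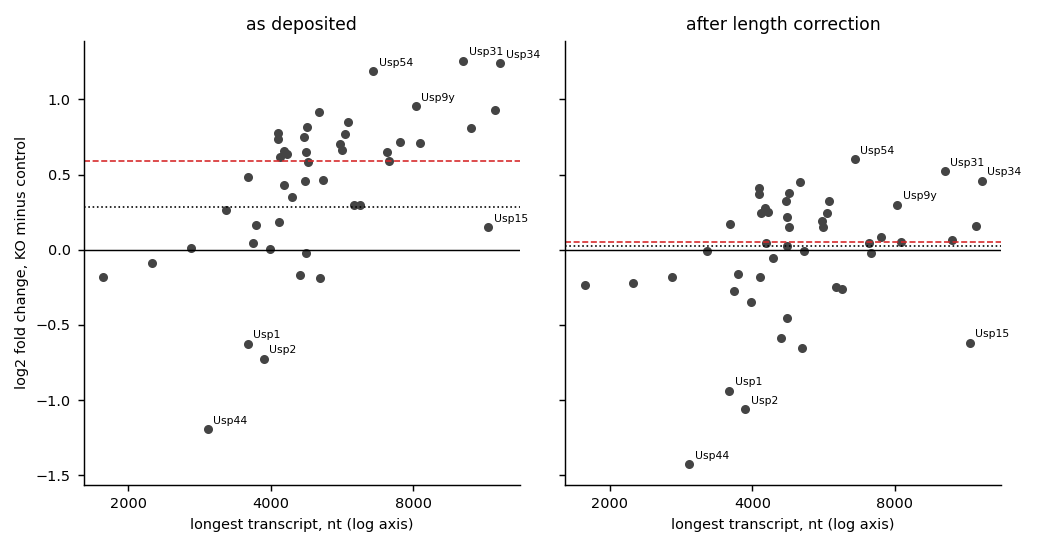
Log2 fold change (KO minus control) of the 46 tested USP genes against the length of their longest transcript (log axis, nt), with TPM as deposited (left) and after a length correction of each library (right). Each point is a gene, the red dashed line is the median of the USP genes and the dotted line that of all genes tested. The median of the USP genes moved from 0.59 to 0.049, and *Usp44* stayed lowest in both panels.

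On the deposited scale, after median-ratio scaling, after quantile normalization and after the length correction alike, 12 of the 46 members lay above both controls in both libraries labelled KO, beside 16.9% of all genes tested. They were *Usp7*, *Usp12*, *Usp28*, *Usp31*, *Usp33*, *Usp34*, *Usp35*, *Usp38*, *Usp40*, *Usp47*, *Usp48* and *Usp54*, a set taken after the values were seen. *Usp44* was the 1 member that lay below both controls on all 4 scales, beside 11% of all genes tested.

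*Usp31*, a regulator of NF-kappa-B signalling (chr7:121642021-121707253), had the largest fold change of the family on the deposited scale. It was at 10.8 and 6.02 TPM against 20.9 and 20.5 TPM, with a log2 fold change of 1.26 (SE 0.39, adjusted p = 0.32 from limma). The libraries labelled KO nearly coincided and both controls were well below them. Without control 2 the fold change of *Usp31* was 0.88, below the 1.01 of *Usp3*. It was 0.99 after quantile normalization, below the 1.04 of *Usp34*. After the length correction it was 0.52, below the 0.60 of *Usp54*. *Usp34* (chr11:23306895-23490560), which stabilises axin in Wnt signalling, was at 78.4 and 32.5 TPM against 122 and 120 TPM (log2 fold change 1.24, SE 0.46, adjusted p = 0.347 from limma). Here the distance between the controls was as large as the fold change itself, which was 0.62 without control 2, and an exon of *Ahsa2* on the other strand overlaps it. *Usp54* (chr14:20548912-20641063), long listed as inactive, was at 29.1 and 20.2 TPM against 52.8 and 60.1 TPM (log2 fold change 1.19, SE 0.28, adjusted p = 0.31 from limma). The groups did not overlap, and *Usp54* overlaps *1810062O18Rik* on the other strand. Its relative *Usp53* was at 17.7 and 10.1 TPM against 17.9 and 15.6 TPM, so that the groups overlapped. It was outside the naming rule and was taken after its values were seen. *Usp40*, a little-described member, was at 35.7 and 25.6 TPM against 58.5 and 57.6 TPM (log2 fold change 0.92, SE 0.25).

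The 11 signalling members, *Usp31* and *Usp34* included, had a median log2 fold change of 0.75. Of them, 7 lay above and 1 below both controls, beside 38.6% and 12.1% of all genes tested. *Usp2*, which acts on cyclin D1 and on clock proteins and is abundant in late spermatogenic cells, was at 179 and 75.4 TPM against 60.1 and 81.5 TPM. Control 1 alone was high, and control 2 fell between the libraries labelled KO (log2 fold change -0.72, SE 0.48, adjusted p = 0.521 from limma). *Usp18*, which removes the ubiquitin-like ISG15, was low throughout, at 1.84 and 1.87 TPM against 1.68 and 1.37 TPM. *Usp12* and *Usp46* encode close relatives that both work with the cofactor UAF1. *Usp12* was at 28.4 and 21.4 TPM against 41.6 and 36.3 TPM, above the controls in both libraries. *Usp46* was at 21.6 and 12.9 TPM against 15.9 and 17.1 TPM, between the controls. The log2 ratio of *Usp12* to *Usp46* within a library was 0.38 and 0.69 against 1.34 and 1.04.

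Sequence upstream of the start site is shown for members of both kinds, as the letters just before the point where transcription begins. The 250 bases come from RefSeq on build GRCm38.p6, on the strand of the gene and from 5′ to 3′, for members whose RefSeq start site is also the outer end of the gene in GENCODE. *Usp34*, *Usp40* and *Usp9y* are shown because they were among the 6 with the largest fold changes, *Usp26* because it is a germline gene of the X chromosome, and *Usp20* because its fold change was negative. Capitals mark matches, on either strand, to the GC box GGGCGG, the CCAAT box CCAAT, the TATA box TATAAA and the cyclic AMP response element TGACGTCA.
Usp34 (+ strand, chr11:23306645-23306894): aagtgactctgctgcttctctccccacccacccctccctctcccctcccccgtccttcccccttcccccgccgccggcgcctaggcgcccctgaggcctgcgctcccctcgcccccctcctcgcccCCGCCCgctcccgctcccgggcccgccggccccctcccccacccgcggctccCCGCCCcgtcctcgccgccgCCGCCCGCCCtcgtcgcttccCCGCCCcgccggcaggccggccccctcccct
Usp40 (- strand, chr1:88008552-88008801): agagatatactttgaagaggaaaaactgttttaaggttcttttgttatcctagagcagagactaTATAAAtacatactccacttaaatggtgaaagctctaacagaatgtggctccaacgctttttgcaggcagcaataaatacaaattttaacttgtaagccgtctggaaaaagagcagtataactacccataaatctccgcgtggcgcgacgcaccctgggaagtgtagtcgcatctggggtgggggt
Usp9y (- strand, chrY:1459783-1460032): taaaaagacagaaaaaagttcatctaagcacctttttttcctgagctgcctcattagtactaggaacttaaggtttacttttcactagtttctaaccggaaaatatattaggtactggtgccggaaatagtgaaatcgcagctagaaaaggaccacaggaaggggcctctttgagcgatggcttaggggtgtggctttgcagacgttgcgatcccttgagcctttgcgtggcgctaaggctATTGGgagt
Usp26 (- strand, chrX:51801234-51801483): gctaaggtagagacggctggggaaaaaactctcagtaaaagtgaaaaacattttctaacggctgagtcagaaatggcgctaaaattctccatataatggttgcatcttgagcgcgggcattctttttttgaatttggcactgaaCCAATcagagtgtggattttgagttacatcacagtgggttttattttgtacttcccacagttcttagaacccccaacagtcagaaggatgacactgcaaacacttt
Usp20 (+ strand, chr2:30982029-30982278): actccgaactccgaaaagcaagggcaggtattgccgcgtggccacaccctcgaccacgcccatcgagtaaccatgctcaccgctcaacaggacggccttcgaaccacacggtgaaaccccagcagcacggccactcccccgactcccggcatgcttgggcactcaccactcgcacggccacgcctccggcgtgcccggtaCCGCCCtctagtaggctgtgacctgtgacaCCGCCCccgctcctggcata
These windows were unlike each other. That of *Usp34* was 82.0% G and C and held 5 GC boxes, some of which overlap, whereas those of *Usp40*, *Usp9y* and *Usp26* were 42.0%, 44.8% and 41.2% and held none. *Usp40* had a single TATAAA, *Usp9y* and *Usp26* a single CCAAT box each, and *Usp20* 2 GC boxes. Over the 43 USP genes with an entry, the median was 64.0% G and C against 52.0% over 27025 genes. A GC box was present in 60.5% of the USP windows and 32.9% of all, a CCAAT in 30.2% and 34.5%, a TATAAA in 11.6% and 13.0%, and TGACGTCA in 0% and 1.62%. Members with high and with low G and C were thus both among those with large fold changes.

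USPs that act on histones take ubiquitin off histones H2A and H2B and so bear on transcription, repair and silencing of chromatin. Of 10 tested genes of this group, 6 lay above both controls and 1 below, beside 38.6% and 12.1% of all genes tested. Their median log2 fold change was 0.47, and none passed the FDR (adjusted p from 0.369 to 0.987 in limma). The median was 0.16 after median-ratio scaling and 0.049 after the length correction. *Usp3*, an H2A deubiquitinase, was at 25.9 and 40.2 TPM against 53.9 and 52.7 TPM (log2 fold change 0.70, SE 0.29). *Usp16*, which acts on H2A in mitosis and gene activation, was at 73.6 and 45.5 TPM against 76.8 and 85.9 TPM, and control 1 came close to the lower library labelled KO. *Usp21*, a further H2A enzyme, was at 58.8 and 35.9 TPM against 44.2 and 48.8 TPM, with the controls on either side.

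*Usp22* is the H2B protease of the SAGA coactivator, and *Usp27x* and *Usp51* encode X-linked relatives that share its adaptor proteins. *Usp22* was at 34.0 and 33.7 TPM against 48.9 and 38.4 TPM (log2 fold change 0.35, SE 0.23, adjusted p = 0.53 from limma). The controls were nearly equal and the libraries labelled KO were above them by unequal amounts. Its sign turned to -0.052 after the length correction. Of 6 listed genes for subunits of the SAGA deubiquitinase module or their relatives, 2 lay above both controls and none below. The shares of all genes tested were 38.6% and 12.1%, and the median of the 6 genes was 0.22. The highest of these, *Atxn7*, was at 19.2 and 6.64 TPM against 22.4 and 24.4 TPM, and the lowest, *Atxn7l3b*, at 492 and 163 TPM against 142 and 171 TPM.

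*Usp7*, which acts on MDM2, p53 and Polycomb proteins, was at 135 and 85.5 TPM against 171 and 167 TPM (log2 fold change 0.65, SE 0.28), which became 0.33 without control 2 and 0.22 after the length correction. *Usp36*, a nucleolar enzyme, was at 12.1 and 13.0 TPM against 20.95 and 20.03 TPM, with groups far apart for their own spread (log2 fold change 0.67, SE 0.28, adjusted p = 0.373 from limma). *Usp42*, which acts on H2B and p53, was at 72.4 and 37.6 TPM against 70.1 and 74.9 TPM, so that control 1 lay within the range of the libraries labelled KO.

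*Usp44* and *Usp49* encode related H2B deubiquitinases, and USP44 also restrains the anaphase-promoting complex in the spindle checkpoint. *Usp44* (chr10:93831555-93858088) was at 18.9 and 5.54 TPM against 3.99 and 3.98 TPM (log2 fold change -1.19, SE 0.65, adjusted p = 0.447 from limma). Both libraries labelled KO were lower than either control, but the size of the difference came mostly from control 1. It was -1.99 without control 2 and -0.39 without control 1. *Usp49* was at 24.0 and 16.3 TPM against 32.8 and 33.4 TPM (log2 fold change 0.71, SE 0.30, adjusted p = 0.37 from limma). After the length correction *Usp44* was at -1.43 and *Usp49* at 0.049. On the deposited scale, the log2 ratio of *Usp44* to *Usp49* within a library was -0.33 and -1.40 against -2.76 and -2.79, with no overlap.

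**Figure D3:**
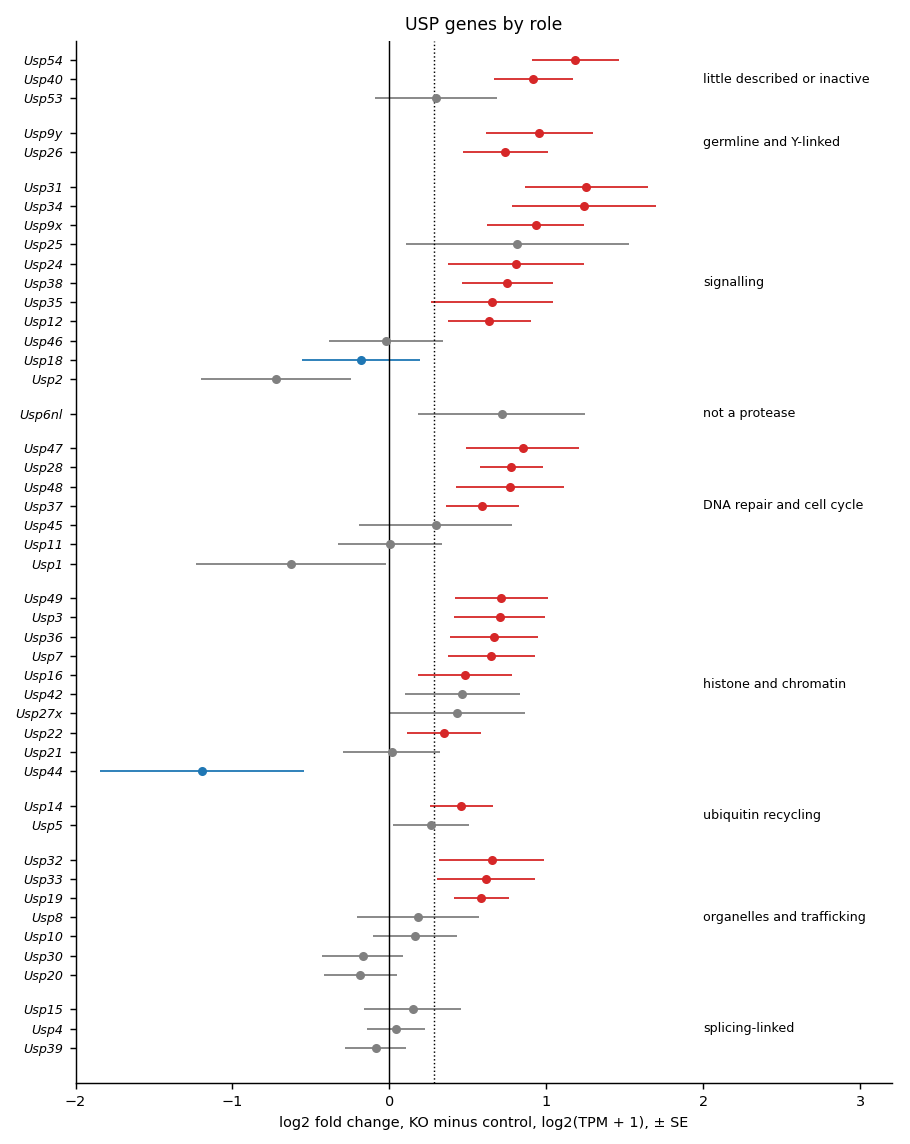
Log2 fold change (KO minus control, on log2(TPM + 1)) of the 46 tested USP genes with its standard error, grouped by role. Red marks genes with both libraries labelled KO above both controls, blue those with both below and grey the rest, and the dotted line is the median of all genes tested, 0.28. *Usp44* at -1.19 stands apart from the other histone enzymes, and no gene passed an FDR of 0.05.

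Among 7 members tied to DNA repair and the cell cycle, 4 lay above both controls and none below, beside 38.6% and 12.1% of all genes tested. Their median log2 fold change was 0.59, or -0.019 after the length correction. *Usp47*, which acts on DNA polymerase beta and beta-catenin, was at 182 and 95.1 TPM against 233 and 244 TPM (log2 fold change 0.85, SE 0.36). The fold change was 0.38 without control 2, 1.32 without control 1 and 0.32 after the length correction. It was among the most abundant USP transcripts in all libraries. *Usp28*, a partner of 53BP1 that also stabilises MYC, was at 32.6 and 37.2 TPM against 59.9 and 60.9 TPM (log2 fold change 0.78, SE 0.20, adjusted p = 0.315 from limma), which is among the clearest separations in the family. *Usp28* was outside the naming rule and was taken after its values were seen.

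*Usp1*, which takes ubiquitin off FANCD2 and PCNA and without which male mice are infertile, was at 284 and 89.8 TPM against 88.7 and 120 TPM. Control 1 was alone at the top, and control 2 fell between the libraries labelled KO (log2 fold change -0.63, SE 0.61, adjusted p = 0.647 from limma). Its fold change was -1.45 without control 2 and 0.20 without control 1. *Usp1*, *Usp2* and *Usp44* thus shared a high control 1, where the summed pachytene markers were also at their highest, 9673 TPM against 4027 to 5350 TPM in the other libraries. The round spermatid markers were highest there too, at 1035 TPM against 169 to 679 TPM. So were the summed elongating spermatid, Leydig cell and macrophage markers. The spermatogonial, leptotene and zygotene, Sertoli cell and peritubular myoid sums were lowest there, and the erythroid sum was neither. Control 2 was the lower control in 37 of the 46 members, beside 66.0% of all genes tested. The part of cell stage or of other cells in these values was not tested. The cofactors of UAF1-dependent USPs did not move together. *Dmwd* was at 49.6 and 51.6 TPM against 75.5 and 82.6 TPM. *Wdr20rt*, a testis relative of *Wdr20*, was at 75.5 and 26.5 TPM against 6.58 and 9.99 TPM (log2 fold change -2.33, SE 0.59, adjusted p = 0.311 from limma).

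Genes of the sex chromosomes are silenced in pachytene, when X and Y are packed into the XY body, and 5 USP genes lie on X and 1 on Y. *Usp9x* and *Usp9y* encode closely related large proteases that spare many substrates. *Usp9x* (chrX:13071498-13173328) was at 35.5 and 23.3 TPM against 63.7 and 48.9 TPM (log2 fold change 0.93, SE 0.31, adjusted p = 0.327 from limma). *Usp9y* (chrY:1298961-1459782) was at 5.76 and 5.68 TPM against 13.1 and 11.04 TPM (log2 fold change 0.96, SE 0.34, adjusted p = 0.34 from limma). The controls of *Usp9y* were almost equal, and its mean went from 5.72 ± 0.057 TPM (SD, n = 2) to 12.1 ± 1.47 TPM (SD, n = 2). The log2 ratio of *Usp9x* to *Usp9y* within a library, which overlapped, was 2.43 and 1.86 against 2.20 and 2.05. After the length correction the fold changes were 0.16 for *Usp9x* and 0.30 for *Usp9y*. How reads were divided between both copies is not given in the sources used here.

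*Usp26* (chrX:51753959-51801233), a testis-specific gene of the X chromosome, was at 21.9 and 27.7 TPM against 47.3 and 36.8 TPM (log2 fold change 0.74, SE 0.27, adjusted p = 0.344 from limma). Both libraries labelled KO were above both controls on the deposited scale, and the value was 0.90 without control 2 and 0.57 without control 1. For *Usp26* it was 0.42 after median-ratio scaling, 0.49 after quantile normalization and 0.37 after the length correction. On each of these scales its groups overlapped. Its autosomal relative *Usp29*, an imprinted gene, was at 0.15 and 0 TPM against 0.18 and 0.21 TPM, too low to be tested. *Usp27x* was at 6.46 and 3.59 TPM against 7.41 and 6.38 TPM, and *Usp11*, which takes part in BRCA2-linked repair, at 16.8 and 25.7 TPM against 22.8 and 19.2 TPM. In both the groups overlapped. *Usp51* was at 0.22 TPM in each control but 1.11 and 0.49 TPM in the libraries labelled KO, below the level set for the test. The 4 tested X-linked members had a median log2 fold change of 0.58 and the 41 autosomal ones 0.59.

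**Figure D4:**
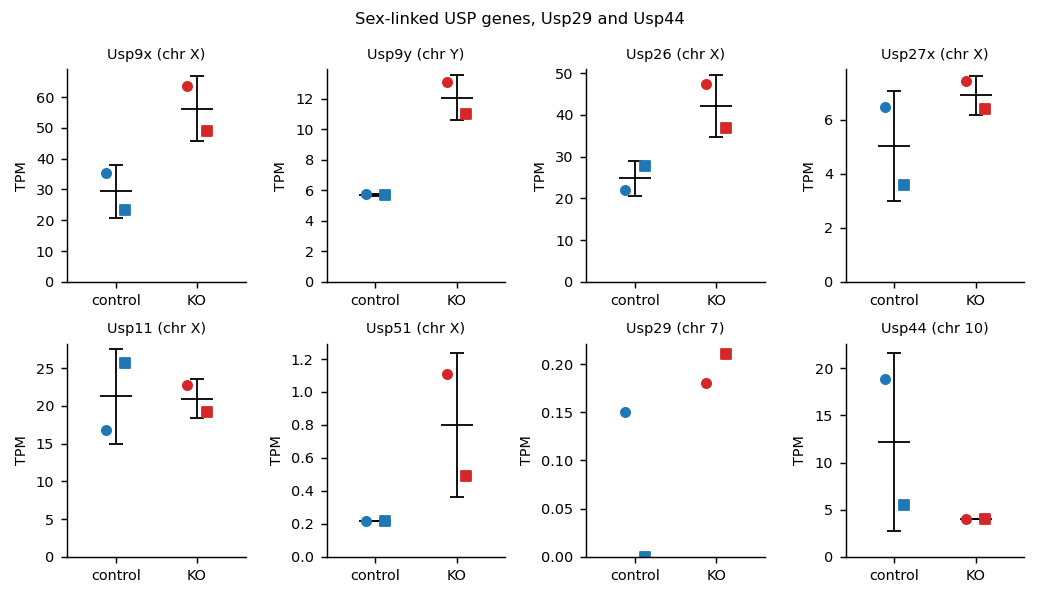
TPM of the sex-linked USP genes, *Usp29* and *Usp44* in each library, with blue points for controls and red points for libraries labelled KO (circle replicate 1, square replicate 2); bars show the mean and SD of 2 libraries and are left out for *Usp29*, which is listed at 0 in control 2. *Usp9y* lay at 5.76 and 5.68 TPM against 13.1 and 11.04 TPM, while *Usp44* lay at 3.99 and 3.98 TPM in the latter.

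Members that work on organelles and traffic differed among themselves. Of 7, 3 lay above both controls and none below, beside 38.6% and 12.1% of all genes tested. Their median log2 fold change was 0.18, where that of all genes tested was 0.28. *Usp19*, an enzyme anchored in the endoplasmic reticulum, was the most abundant USP transcript on average, at 192 and 187 TPM against 290 and 280.3 TPM. Each pair nearly coincided (log2 fold change 0.59, SE 0.17, adjusted p = 0.319 from limma), and the value was 0.15 after the length correction. *Usp8*, which acts on endosomal receptors and is needed in acrosome formation, was at 187 and 91.2 TPM against 148 and 149 TPM, with the controls on either side. *Usp20* and *Usp33* encode related enzymes that act on receptors and on VHL-linked targets. *Usp20* was at 48.4 and 38.7 TPM against 35.6 and 40.5 TPM, and *Usp33* at 37.5 and 23.0 TPM against 44.1 and 47.1 TPM. Their log2 ratio within a library, *Usp20* to *Usp33*, was 0.36 and 0.73 against -0.30 and -0.22. *Usp30*, which opposes mitophagy, was at 39.8 and 30.9 TPM against 33.8 and 28.5 TPM.

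The 2 tested members that recycle ubiquitin had a median log2 fold change of 0.36, with 1 above both controls, beside 38.6% of all genes. *Usp5*, which takes apart free ubiquitin chains, was at 129 and 185 TPM against 187 and 184 TPM, where control 1 alone was low. Among the splicing-linked *Usp4*, *Usp15* and *Usp39*, none separated the groups, beside 38.6% of all genes above both controls and 12.1% below. Their median log2 fold change was 0.043. *Usp39* encodes an inactive member that belongs to the spliceosome. The 4 genes that encode ubiquitin itself had a median of -0.29, and of these *Ubb* lay below both controls, at 5388 and 7828 TPM against 4540 and 4277 TPM.

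Deubiquitinases without a Usp symbol were read from a list of 35 genes, all of which were tested. Of these, 13 lay above both controls and 4 below, 37.1% and 11.4% of the list beside 38.6% and 12.1% of all genes. At an unadjusted p under 0.05 from limma, 6 were higher and 0 lower. These were 17.1% and 0% of the list, beside 10.7% and 3.73% of all genes. At the FDR 0 passed, as for 0% of all genes. Their median log2 fold change was 0.21, below the 0.28 of all genes, and it was -0.11 after median-ratio scaling. The 16 OTU enzymes had a median of 0.59, the 5 UCH enzymes 0.0032, the 3 Josephin enzymes 0.24, the 7 JAMM enzymes -0.12 and the 4 remaining ones 0.36. *Otud1* had the largest fold change of the list, at 16.7 and 10.4 TPM against 44.6 and 51.6 TPM (log2 fold change 1.79, SE 0.33, adjusted p = 0.31 from limma). The lowest was *Fam63a*, at 64.8 and 15.4 TPM against 18.9 and 20.8 TPM, where control 1 alone was high.

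Among the members too low for the test, *Usp17lb*, *Usp17lc*, *Usp17ld* and *Usp17le* were listed at 0 in every library and *Usp17la* reached 0.07 TPM in library 2 labelled KO. These genes lie on chromosome 7 and are near-identical copies, whose reads may be split among them. *Usp13*, a relative of *Usp5*, was between 0.19 and 0.67 TPM, *Usp43* between 0.16 and 0.99 TPM, and *Usp50*, listed as inactive, between 0 and 0.43 TPM.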

How the data were processed

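Sorted GFP-positive testis cells of 2 control and 2 KO libraries were compared, grouped by their labels. The authors trimmed reads with Trim Galore 0.5.0 (cutadapt 1.16), aligned them to mm10 with STAR 2.6.0a and deposited TPM from RSEM 1.3.1. TPM keeps no depth, so counting precision is unknown. Genes averaging 1 TPM or more were fitted with limma 3.58.1 in R 4.3.3 on log2(TPM + 1), letting the variance follow the mean level, and p-values were adjusted by Benjamini-Hochberg over 14512 genes. The fit was tested on simulated data with the same spread in every library. In the real data the median gap was 0.65 between controls and 0.16 between libraries labelled KO, which the simulation does not cover. Lengths of the longest GENCODE transcripts covered 95.9% of the genes tested, and the length correction removed a lowess trend per library. Whether counting used the strand is not given in the sources used here, so reads of genes that overlap on opposite strands, such as *Usp34* and *Usp54* with their partners, cannot be told apart.

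The members and lists were chosen with earlier results of these data known. Named were sex-linked members, *Usp29*, *Usp44*, the 6 largest and smallest fold changes, the 5 most abundant, the histone group, and paralogues of opposite direction. Each library came from 1 testis, per the labels. Alternatives changed the pseudocount, filter, scaling, trend, replicate block, length or samples.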

Additional observations from a re-analysis of the deposited data

How the results depend on the processing

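The length correction and the crossed block were chosen after the data were seen. Members past an FDR of 0.05 numbered 0 higher and 0 lower in every fit on all 4 libraries, and with a library left out they ranged from 0 to 25 higher and from 0 to 3 lower in limma. The 25 came without control 1, beside 38.7% of all genes higher, and the 9 higher and 3 lower without control 2, beside 15.5% and 12.9%, where the lone control was assumed to vary like the libraries labelled KO. Members higher at an unadjusted p under 0.05 numbered 3 with median-ratio scaling, 3 with the replicate block, 1 with the length correction, and 0 to 32 with a library left out. Members lower at that level numbered 1 with quantile normalization, 4 with the length correction, and 0 to 4 with a library left out. Members above both controls numbered 12 with the length correction, beside 23.1% of all genes. Without control 1 and without control 2 they numbered 37 and 27, beside 65.8% and 52.9% of all genes. Without library 1 and without library 2 labelled KO they numbered 29 and 28, beside 42.9% and 46.7%. Members below both controls numbered 11 with median-ratio scaling, 8 with quantile normalization and 11 with the length correction, beside 22.3%, 19.4% and 21.1%. With the libraries left out in the same order they numbered 4, 12, 3 and 6, beside 25.0%, 36.0%, 15.6% and 15.7%. Shares of all genes at an unadjusted p under 0.05 are not given for these settings. The median of the members was 0.27 with median-ratio scaling, 0.32 with quantile normalization, 0.049 with the length correction, and 0.29 to 0.73 with a library left out.

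Over the 9 alternatives that can alter a fold change, 25 of 46 members stayed higher and 4 lower. The share of all genes that did so is not given, so these counts have no background. Of all genes, 69% had a positive sign in the main fit, 49.7% with median-ratio scaling and 51.6% with the length correction. After the length correction all 38 positive fold changes were smaller by over 1.5 times or negative, a count that also has no background. The median of all genes went from 0.28 to 0.022 under that correction. Values that turned sign were, with median-ratio scaling, *Usp11* (-0.31), *Usp21* (-0.30), *Usp5* (-0.060), *Usp8* (-0.14), *Usp10* (-0.15), *Usp15* (-0.17), *Usp4* (-0.28), *Usp53* (-0.0073), the organelle (-0.14) and splicing-linked (-0.28) members, the other deubiquitinases (-0.11) and all genes (-0.0044), and with quantile normalization *Usp11* (-0.23), *Usp21* (-0.27), *Usp10* (-0.12), *Usp15* (-0.14), *Usp4* (-0.050), *Usp53* (-0.0015), the splicing-linked members (-0.14) and the other deubiquitinases (-0.0014). With the length correction they were *Usp11* (-0.34), *Usp21* (-0.18), *Usp22* (-0.052), *Usp42* (-0.0088), *Usp5* (-0.0072), *Usp8* (-0.18), *Usp10* (-0.16), *Usp15* (-0.62), *Usp37* (-0.019), *Usp4* (-0.28), *Usp45* (-0.25), *Usp53* (-0.26), and the members tied to DNA repair (-0.019), organelles (-0.16) and splicing (-0.28). With a library left out, among the values named by rule, *Usp1* ranged from -1.45 to 0.20, *Usp11* from -0.29 to 0.30, *Usp30* from -0.35 to 0.0059, *Usp46* from -0.37 to 0.33, *Usp8* from -0.33 to 0.70, *Usp21* from -0.33 to 0.36, *Rec8* from -0.25 to 1.59, the organelle members from -0.037 to 0.61 and the splicing-linked members from -0.045 to 0.13. The cause was not tested. Deviations of same-numbered libraries were weakly and negatively correlated (r = -0.16 across genes). With the numbers crossed as the block, 7 members were higher at an unadjusted p under 0.05 and 0 passed the FDR. Over all genes, 7 higher and 80 lower passed the FDR with that block, a pairing chosen after the data were seen. Depth is not recorded in TPM, so what it limits is unknown.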
